A study of Mus musculus with 16 samples.

Results

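The spinal sensory ganglia of the mouse, the dorsal root ganglia (DRG), were set against its cranial sensory ganglia. RNA-seq libraries titled as L3-L5 DRG and T10-L1 DRG formed the spinal class, with 8 libraries, and libraries of the trigeminal ganglion (TG) and of the nodose-jugular complex of the vagus (NG/JG) formed the cranial class, with 8 libraries. All 16 libraries of the series entered, 4 for each of the 4 ganglia, and each ganglion had equal weight. Every library came from naive C57BL/6J mice labelled as male, 8 to 12 weeks old, that carried Pirt-cre and Rosa26-LSL-tdTomato (Pirt/TdTomato). In these mice a red fluorescent protein marks cells in which the promoter of the sensory neuron gene Pirt has driven Cre, and cells of medium to bright fluorescence were sorted from dispersed left and right ganglia through repeated rounds of flow cytometry. The only difference the labels give between the groups is the ganglion. The sources used here do not say how many animals went into a library, nor that same-numbered libraries share animals, so the p-values measure the spread between these libraries, which may be technical in part. Against the label, all 16 libraries held between 1279 and 8362 reads on Xist and 0 reads on the 13 genes of chromosome Y in the files, and this was alike in both classes.

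Neurons of the DRG arise from neural crest of the trunk and carry touch, pain, itch and limb position from the body. Those of the TG arise from cranial neural crest and an ectodermal placode and serve the face and the meninges, while the NG/JG complex joins placode-derived nodose neurons, which serve the inner organs, with crest-derived jugular neurons. Hox genes, transcription factor genes that give cells their position along the head-to-tail axis, are the textbook difference between trunk and head, and the comparison asked which other genes separate the classes in the same direction for every choice of spinal and cranial ganglion.

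Reads on genes ranged from 4735624 to 13333318 per spinal library and from 5082985 to 9675318 per cranial library. Genes with at least 1 read numbered 13617 to 18571 in spinal, 11527 to 15354 in TG and 10132 to 13029 in NG/JG libraries. The neuronal markers Pirt and Tubb3 had reads in every library, with at least 106 and 720 reads respectively, and the mean of log2(CPM + 1) over 13 neuron markers (CPM, reads of a gene scaled to the reads on all genes of its library) was 6.26 to 9.50 in spinal and 5.51 to 7.90 in cranial libraries. Markers of satellite glia, the cells that wrap neuronal bodies, reached 8.51 to 10.2 and 9.47 to 9.95 on the same scale, so the sorted fractions held much glial RNA in both classes. The CPM of single genes given below also carry a normalization factor per library (TMM). It ran from 0.769 in TG library 2 to 1.14 in T10-L1 DRG library 2. L3-L5 DRG library 4 and T10-L1 DRG library 1 had the largest share of uniquely aligned reads outside genes (66.6% and 51.5%, against 29.6% to 47.0% in the other libraries), and TG library 1 correlated with the other TG libraries at a mean r of 0.647 across genes, against 0.774 to 0.785 for its companions. These 3 libraries also had the lowest neuron marker level of their own ganglion, at 6.26, 6.95 and 5.51, and each main count is given with and without them. Every NG/JG library had a lower mean r with its own ganglion than TG library 1, at 0.559 to 0.598. The NG/JG replicates were thus the least alike by this measure.

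Of 14236 genes with enough reads for the test, 208 differed between the classes in edgeR's quasi-likelihood test on all 16 libraries, with a Benjamini-Hochberg adjusted p below 0.05. They were 124 genes higher in spinal ganglia, or 0.871% of those tested, and 84 genes higher in cranial ganglia, or 0.59%. Before adjustment, 1415 and 923 genes had a p under 0.05. A gene was said to hold when it was called in this contrast and its log2 fold change had the same direction and a size of at least 1, a 2-fold difference, in each of the 4 pairs (L3-L5 DRG over TG, L3-L5 DRG over NG/JG, T10-L1 DRG over TG, T10-L1 DRG over NG/JG). There were 91 such genes: 81 were higher in spinal ganglia (0.569% of genes tested), of which 7 were Hox genes and 74 were not, and 10 were higher in cranial ganglia (0.0702%). The other 43 spinal and 74 cranial calls failed in at least 1 pair. Examples are the pituitary hormone genes Prl and Pomc, at 2825 and 535.5 CPM on average in TG, while the means in the other ganglia were 2.41 to 3.44 for Prl and 1.40 to 2.48 for Pomc. In a sorted bulk library, fewer cells of one type and less RNA per cell of that type cannot be told apart.

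The 2 directions differed in level and size. The 81 spinal genes had a median log2 fold change of 5.71 (range 1.95 to 9.09), and setting the 3 of them with no cranial read to a floor of 3 reads over the class left it at 5.71. The 10 cranial genes had a median of -1.56 (range -1.24 to -2.22), while the median of all genes tested was 0.08. The direction and size of the members were fixed by how they were chosen. Their mean level had a median of 8.59 CPM for the spinal genes and 101 CPM for the cranial genes, beside 26.0 CPM for all genes tested. Of the 81, 60 had at most 3 reads in every NG/JG library and 27 had at most 3 in every TG library, so their fitted fold change depends on the small prior count of the fit. The smallest of the 4 pair differences was that of T10-L1 DRG over TG for 48 of the 81 and that of L3-L5 DRG over TG for 20. Just inside the 2-fold limit lay Tmem45b, with 1.03 in its weakest pair, and Hmgn3 with -1.04. Just outside it lay Esyt1 with 0.97 and Med21 with -0.97.

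**Figure D1:**
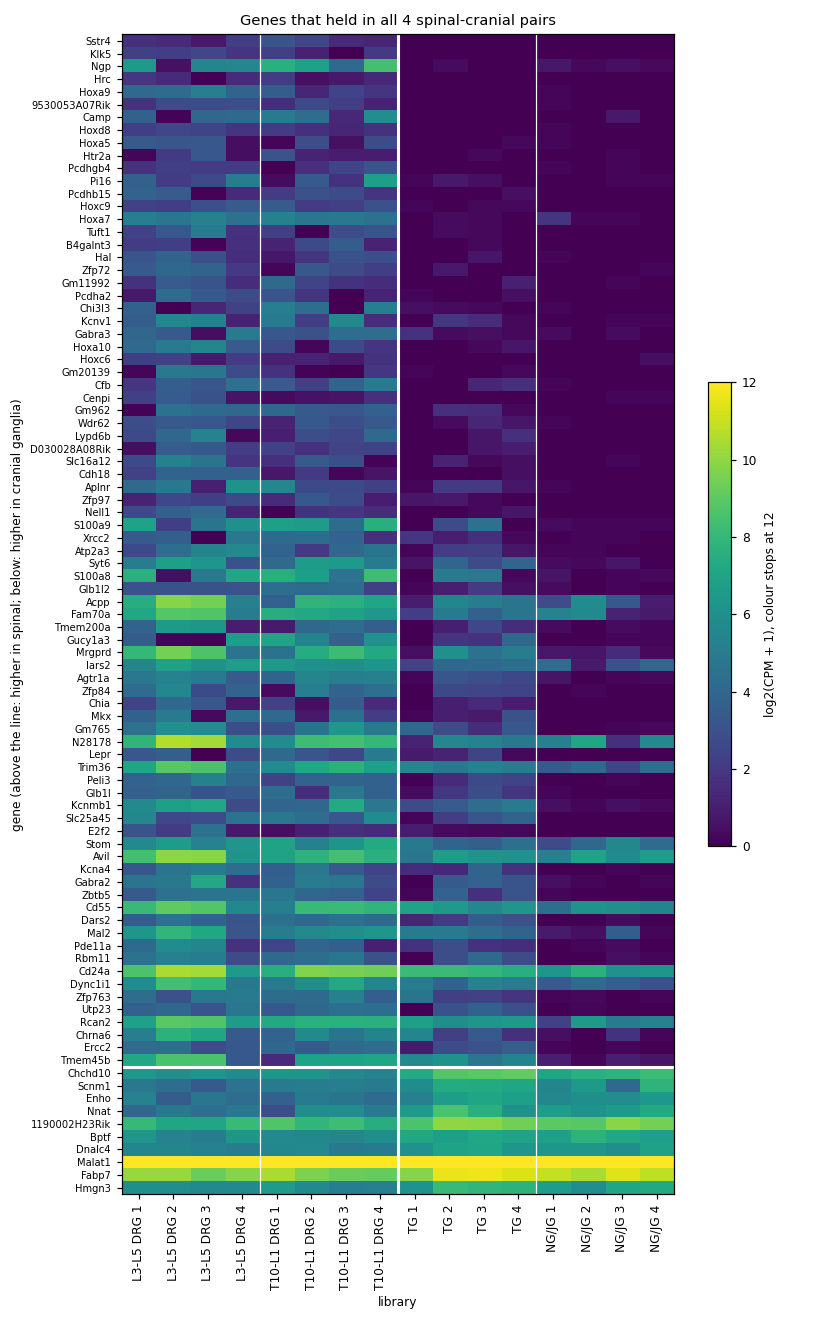
Heat map of the 91 genes that held in all 4 spinal-cranial pairs (rows) in the 16 libraries (columns), coloured by log2(CPM + 1), with Malat1 above the end of the colour scale. The 81 upper genes were chosen as higher in spinal libraries and are dark in most NG/JG columns, while the 10 lower genes are visible in all 16 columns and differ less between the classes.

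A stricter reading of the pairs gave no calls. When each gene was given the largest p of its 4 pairs, 0 genes passed after adjustment and the lowest adjusted p was 0.777 (edgeR), with 98 genes at an unadjusted largest p under 0.05, 73 higher in spinal and 25 in cranial ganglia. Of the genes that held, 41 of the 81 spinal and all 10 cranial genes had an unadjusted p under 0.05 in each pair. Among the genes named by the rule, 5 did not, in each case for T10-L1 DRG over TG: Chrna6 (log2 fold change 1.11 ± 1.15 SE), Gabra2 (1.37 ± 1.30), Kcna4 (1.39 ± 1.15), Kcnmb1 (1.77 ± 0.95) and Cd55 (1.34 ± 0.66). Gabra2 and Kcna4 also missed it for L3-L5 DRG over TG (2.76 ± 1.36 and 2.08 ± 1.18). DESeq2's Wald test called 7 genes on the same criterion. With the ganglion as the unit there are only 2 against 2, for which an exact two-sided permutation test cannot go below p = 0.333. The 8 spinal libraries all lay above the 8 cranial libraries for 39 genes (0.274% of genes tested) and all lay below for 18 genes (0.126%), and of the genes that held, 15 spinal and 4 cranial genes had no overlap.

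The number of genes that held depended on single libraries. Among spinal genes it was 24, 18, 19 and 65 with L3-L5 DRG libraries 1 to 4 left out in turn, 33, 11, 9 and 8 for T10-L1 DRG, 128, 8, 11 and 12 for TG, and 181, 70, 139 and 62 for NG/JG. Among cranial genes it was 3, 1, 2 and 7 for L3-L5 DRG, 7, 1, 1 and 1 for T10-L1 DRG, 29, 1, 1 and 1 for TG, and 32, 13, 18 and 13 for NG/JG. With the 3 libraries that stand apart left out together, 97 spinal genes (91 without Hox genes) and 27 cranial genes held, and these included 62 of the 81 and 9 of the 10. DESeq2, in place of edgeR, gave 414 and 71 genes, including all 81 and all 10. The lowest counts came from limma voom with a variance weight per ganglion, where 2 and 1 genes held (Hoxa7, Hoxa9 and Chchd10). A fit with the replicate number as a block gave counts as low, with 2 and 1 that held (Mrgprd, Ngp and Chchd10).

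**Figure D2:**
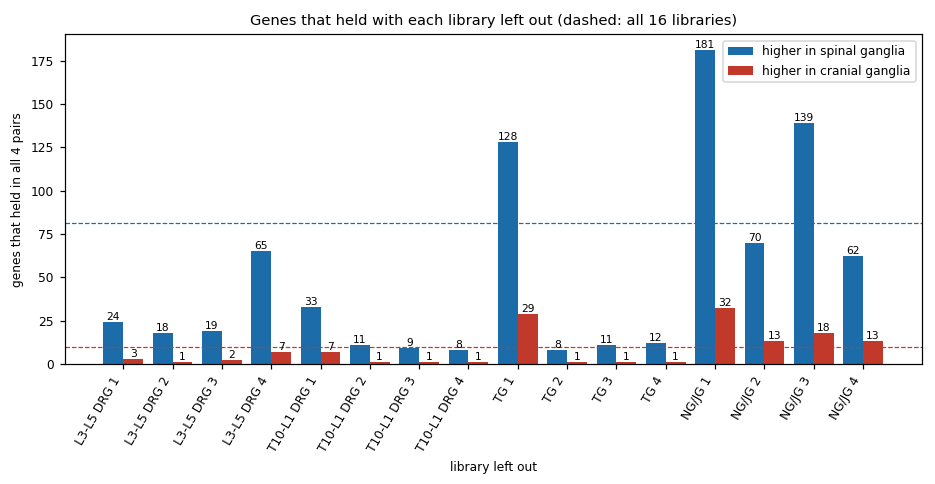
Number of genes that held in all 4 pairs after each of the 16 libraries was left out in turn (bars), for genes higher in spinal (blue) and in cranial ganglia (red), with the counts from all 16 libraries as dashed lines at 81 and 10. The spinal count ran from 8 without TG library 2 or T10-L1 DRG library 4 to 181 without NG/JG library 1.

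Only 6 genes held in all 16 of these left-out fits. They were Hoxa7, Hoxa9, Mrgprd, Ngp and Syt6 among spinal genes and Chchd10 among cranial genes. Syt6 and Hoxa7 are outside the rule by which genes were named and were singled out after their values were seen, as were Avil, Acpp, Gucy1a3, S100a8, S100a9, Pcdha2, Agtr1a, Aplnr and Lepr. Each gene that held was retained in at least 2 of the 16 fits, with a median of 6 fits for the spinal and 5.5 for the cranial genes. At the low end of the genes described below, Htr2a and Hrc held in 2 fits. Gabra2, Gucy1a3, Klk5, Pcdha2, Hoxc6 and Dnalc4 held in 3, and Acpp, Lepr, Pcdhgb4, Hoxa5 and Hmgn3 in 4.

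Mrgprd, which encodes a receptor of the Mas-related family that marks non-peptidergic nociceptors, the neurons of skin pain without neuropeptides, lies on the plus strand of mm9 at chr7:152500740-152509964. Its levels were 255, 724, 404 and 22.6 CPM in L3-L5 DRG, 21.9, 171, 296 and 154 CPM in T10-L1 DRG, 0.404, 63.8, 22.4 and 33.5 CPM in TG, and 0.699, 0.630, 1.81 and 0.232 CPM in NG/JG. Every NG/JG library was at or below 14 reads, TG libraries 2 to 4 lay at the level of the lowest library of each DRG or above it, and these low DRG values were those of L3-L5 DRG library 4 and T10-L1 DRG library 1. The log2 fold change of spinal over cranial was 5.56 ± 0.86 (SE, 8 against 8 libraries, edgeR adjusted p = 0.0131), and it was 3.55 and 2.43 over TG and 8.69 and 7.56 over NG/JG for L3-L5 and T10-L1 DRG. Left-out fits gave 5.24 to 6.04, with adjusted p between 0.00266 and 0.0433.

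Syt6, a gene of the synaptotagmin family of membrane-trafficking proteins (chr3:103379154-103449490, plus strand), followed a similar order of ganglia. Its levels were 31.8, 108, 78.5 and 7.15 CPM in L3-L5 DRG, 16.5, 94.3, 85.2 and 30.1 CPM in T10-L1 DRG, 0.538, 14.1, 5.91 and 13.9 CPM in TG, and 0.280, 0.210, 0.648 and 0 CPM in NG/JG. NG/JG lay below all other ganglia apart from TG library 1, whereas L3-L5 DRG library 4 lay within the range of TG. The log2 fold change was 5.15 ± 0.86 (SE, 8 against 8, edgeR adjusted p = 0.0131).

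Among the markers of nociceptors and itch neurons fixed as a list, 31 of 35 were tested, and 3 rose in spinal ganglia (9.68%, against 0.871% of all genes tested): Mrgprd, Cd55 and Calcb. Another 27 had a positive and 1, the itch receptor gene Mrgpra3, a negative log2 fold change, and 20 of the 31 were higher in all 4 pairs. The share of all genes tested that were higher in all 4 pairs was not counted. The median of the list was 2.12, and it stayed so with Htr1f, which had no cranial read, at its bound, beside 0.08 for all genes tested. Cd55, a complement regulator on the surface of small sensory neurons, had 322 ± 212 CPM in L3-L5 DRG, 209 ± 119 CPM in T10-L1 DRG, 82.4 ± 31.1 in TG and 47.5 ± 21.6 in NG/JG (SD, n = 4 each), a log2 fold change of 2.05 ± 0.48 (SE, edgeR adjusted p = 0.0399). Calcb, which encodes beta-CGRP, was called with 3.29 ± 0.54 (SE, edgeR adjusted p = 0.0131) but did not hold, since its 94.0 CPM in TG was close to the 147 and 118 CPM of the DRG, while NG/JG had 1.91. Below the threshold, the sodium channel gene Scn10a had a log2 fold change of 2.37 (edgeR adjusted p = 0.0584) and the lysophosphatidic acid receptor gene Lpar5 had 5.08 (edgeR adjusted p = 0.0700).

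The general neuron markers had a lower median than this list. Of 13, 1 rose in spinal ganglia (7.69%, against 0.871% of all genes tested). There were 11 higher in the spinal class, 2 of them in all 4 pairs, with a median log2 fold change of 0.46. The one called was Avil, which encodes the actin-binding protein advillin of sensory neurons. It had 571 ± 441 CPM in L3-L5 DRG, 220 ± 96.3 CPM in T10-L1 DRG, 67.3 ± 31.0 in TG and 79.0 ± 41.2 in NG/JG (SD, n = 4 each), a log2 fold change of 2.28 ± 0.46 (SE, edgeR adjusted p = 0.0299). Part of its exons, 4.86%, overlaps Tsfm on the opposite strand, and the strand setting of the counting is not given in the sources used here. Acpp, the gene of prostatic acid phosphatase, which degrades AMP to adenosine and is abundant in non-peptidergic nociceptors, also held, at 462 ± 422, 145 ± 95.9, 25.3 ± 18.4 and 17.6 ± 24.8 CPM in the same order of ganglia (SD, n = 4 each). Low values of Mrgprd, Cd55, Acpp and Avil within each DRG fell in the libraries with low neuron marker levels, and the part of neuron content in these differences was not tested.

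**Figure D3:**
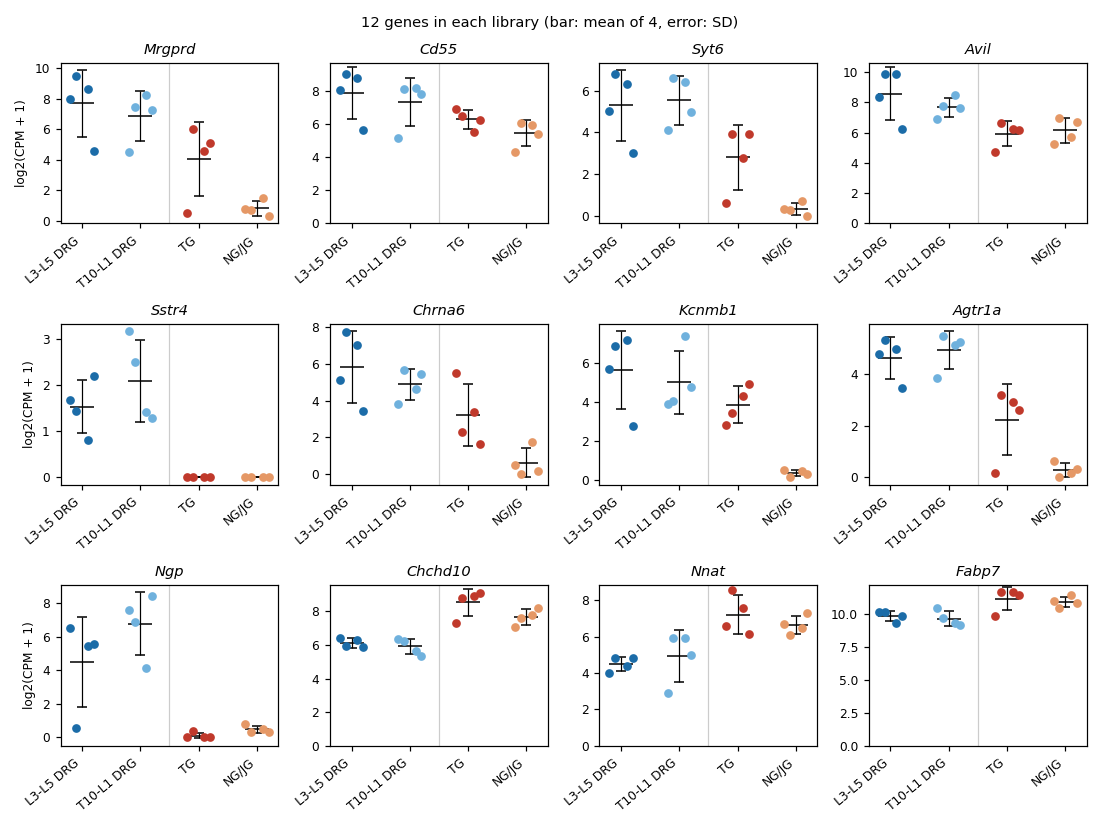
Levels of 12 genes in each of the 4 libraries of each ganglion, as log2(CPM + 1), with the mean and SD. Mrgprd, Syt6 and Agtr1a are lowest in NG/JG, with TG between NG/JG and both DRG, Sstr4 has no cranial read, and Chchd10 and Nnat have no cranial library among the spinal ones.

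Receptors of transmitters and hormones formed a further group of genes that held in the spinal direction. Sstr4, the somatostatin receptor gene at chr2:148221113-148226239 (plus strand), had 25, 19, 10 and 19 reads in L3-L5 DRG, 56, 55, 21 and 19 reads in T10-L1 DRG and 0 reads in all 8 cranial libraries. Spinal libraries were therefore above cranial ones without overlap, at low counts, and the pooled level was at least 53.7-fold higher against a floor of 3 reads over the cranial class (edgeR adjusted p = 0.0299). This floor, like the counting intervals given for other genes, reflects the counting of reads alone, which were not tagged by molecule, so PCR copies are included.

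Htr2a, the serotonin receptor gene (chr14:75040647-75106666, plus strand), had 2, 35, 114 and 2 reads in L3-L5 DRG and 52, 15, 12 and 13 reads in T10-L1 DRG, against a single read in TG library 3 and in NG/JG library 3. The pooled ratio was 88.1 (95% exact counting interval 24.1 to 731, edgeR adjusted p = 0.0462), and 1 library carried most of the reads in each DRG. Htr2a held in only 2 of the 16 left-out fits. Of the neurotransmitter receptor list, 60 of 90 genes were tested, and the 4 that rose in spinal ganglia (6.67%, against 0.871% of all genes tested) all held. Besides Htr2a they were the GABA-A receptor subunit genes Gabra3 and Gabra2 and the nicotinic receptor subunit gene Chrna6. No gene of this list was higher in cranial ganglia at the threshold, and its median log2 fold change was 0.60.

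Gabra3 had 13.4 ± 12.2 and 13.3 ± 6.28 CPM in L3-L5 and T10-L1 DRG against 0.795 ± 0.998 in TG and 0.135 ± 0.156 in NG/JG (SD, n = 4 each, log2 fold change 5.26 ± 1.15 SE, edgeR adjusted p = 0.0334). Gabra2 had 23.9, 27.2, 150 and 2.26 CPM in L3-L5 DRG, 12.4, 32.6, 26.7 and 5.71 CPM in T10-L1 DRG, 0, 9.48, 12.9 and 7.72 in TG and 0.419, 0.105, 0 and 0.116 in NG/JG, so the lowest spinal libraries lay within the range of TG. Chrna6 had 9.59 to 211 CPM (median 38.0) in spinal and 0 to 44.4 CPM (median 2.24) in cranial libraries. Its highest cranial value was TG library 1, above the spinal median.

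Outside the fixed lists, receptor genes that held included Agtr1a for angiotensin II, Aplnr for apelin and Lepr for leptin. This grouping was made after the values were seen. Agtr1a had 9.97 to 43.0 CPM (median 32.4) in spinal and 0 to 8.20 CPM (median 0.396) in cranial libraries, without overlap (log2 fold change 4.73 ± 0.89 SE, edgeR adjusted p = 0.0259). Aplnr had 28.2 ± 28.3 and 15.6 ± 21.4 CPM in the DRG, 1.70 ± 1.53 in TG and 0.0350 ± 0.0699 in NG/JG (SD, n = 4 each), and Lepr had 6.55 and 15.0 CPM on average in the DRG, 1.68 in TG and no read in NG/JG. From the opioid and peptide receptor list, Sstr4 rose in spinal ganglia and Pomc in cranial ganglia among 27 tested, beside 0.871% and 0.59% of all genes tested. Of the 27, 19 had a positive log2 fold change (median 1.74, beside 0.08 for all genes tested).

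Ion channel genes that held came from a list of 93, of which 85 were tested, 3 rose in spinal and 0 in cranial ganglia (3.53% of the list in all, against 0.871% and 0.59% of all genes tested), with a median log2 fold change of 0.89. Kcnmb1 encodes the beta-1 subunit of the large-conductance calcium-activated potassium channel and is known from smooth muscle. It had 50.0, 114, 140 and 5.83 CPM in L3-L5 DRG, 13.97, 15.2, 161 and 25.8 CPM in T10-L1 DRG, 5.92, 9.73, 18.8 and 29.2 CPM in TG and 0.419, 0.105, 0.389 and 0.232 CPM in NG/JG (log2 fold change 4.90 ± 0.78 SE, edgeR adjusted p = 0.0131). It held in 15 of the 16 left-out fits. TG overlapped both DRG, and NG/JG lay below all other libraries. Kcnv1, a silent potassium channel subunit gene, had 1.13 to 53.1 CPM (median 20.3) in spinal and 0 to 2.82 CPM (median 0.123) in cranial libraries. Kcna4, the gene of the Kv1.4 channel of A-type currents, had 4.28 to 30.5 CPM (median 15.2) in spinal and 0 to 13.3 CPM (median 0.833) in cranial libraries, and the value of 13.3 came from TG library 3.

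Mural cells, the contractile cells of small vessels, had all 11 markers higher in spinal ganglia (median log2 fold change 3.30). Of these markers 1, Rgs5, was called, beside 0.871% of all genes tested. The mean of log2(CPM + 1) over them, their marker level, was 1.77 to 6.35 in spinal, 1.40 to 4.89 in TG and 1.39 to 1.94 in NG/JG libraries. In L3-L5 DRG libraries 2 and 3, where it was lowest among spinal libraries at 1.77 and 2.08, Kcnmb1 was at 114 and 140 CPM, above the other L3-L5 DRG libraries, and Agtr1a was at 38.8 and 30.4 CPM. Gucy1a3, a subunit gene of the nitric oxide receptor guanylate cyclase that also held, was at 0.0890 and 0.0757 CPM in those libraries and at 102 CPM in L3-L5 DRG library 4, where the mural marker level was 6.35. Within TG, library 1 had the lowest mural marker level, at 1.40, and also the lowest Kcnmb1. NG/JG had the lowest mean mural marker level of all ganglia and the lowest Kcnmb1. The part of mural content in these genes was not tested. The 11 endothelial markers gave no call (median 0.72), beside 0.871% (spinal) and 0.59% (cranial) of all genes tested. Few calls would fall in a list of this size at that share, so this is no result about them. Their marker level was 2.12 to 7.12 in spinal and 1.27 to 5.57 in cranial libraries.

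Of the 12 spinal genes without a Hox name that were ranked highest by their weakest pair, 3 belonged to lists of other cell types. Ngp and Camp encode granule proteins of neutrophils and Pi16 a peptidase inhibitor of fibroblasts. Ngp, at chr9:110322254-110325514 (plus strand), had 1026, 5, 569 and 246 reads in L3-L5 DRG, 1372, 1405, 207 and 4679 reads in T10-L1 DRG, 0, 1, 0 and 0 reads in TG and 5, 2, 3 and 2 reads in NG/JG. Only L3-L5 DRG library 2 lay in the cranial range, and the log2 fold change of 9.09 ± 1.05 (SE, edgeR adjusted p = 0.00123) was the largest of the genes that held. Camp had 1 read in that library, 20 to 778 in the other spinal libraries, 6 in NG/JG library 3 and 0 in the other cranial libraries. S100a8 and S100a9, which encode the calprotectin subunits of neutrophils and other myeloid cells, also held, with 0.356 to 307 and 3.65 to 183 CPM in spinal libraries against 0 to 30.0 and 0 to 21.7 CPM in cranial ones.

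Of 13 neutrophil markers, 12 were in the files and 9 were tested. All 9 were higher in spinal ganglia (median log2 fold change 5.72) and 4 rose, against 0.871% of all genes tested. The marker level over the 12 was 0.461 to 5.15 in spinal and 0.0559 to 1.46 in cranial libraries, lowest in the spinal class in L3-L5 DRG library 2. The chemokine receptor gene Cxcr2 had no cranial read, and Elane had at most 1 read in a cranial library. The 4 haemoglobin genes are listed at 0 in all 16 libraries. Macrophage markers gave no call among 12, beside 0.871% (spinal) and 0.59% (cranial) of all genes tested. So few calls would fall in this list at that share that their absence is no result. The macrophage marker level was 2.59 to 10.1 in spinal and 1.43 to 8.67 in cranial libraries. The part of blood cells in the genes named here was not tested.

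Pi16 had 134, 36, 70 and 170 reads in L3-L5 DRG, 2, 112, 31 and 1448 reads in T10-L1 DRG and at most 3 reads in any cranial library. It was the 1 gene called of 11 fibroblast markers, beside 0.871% of all genes tested. Their marker level was 4.56 to 9.23 in spinal and 3.60 to 7.21 in cranial libraries. The highest value of both lay in T10-L1 DRG library 4.

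**Figure D4:**
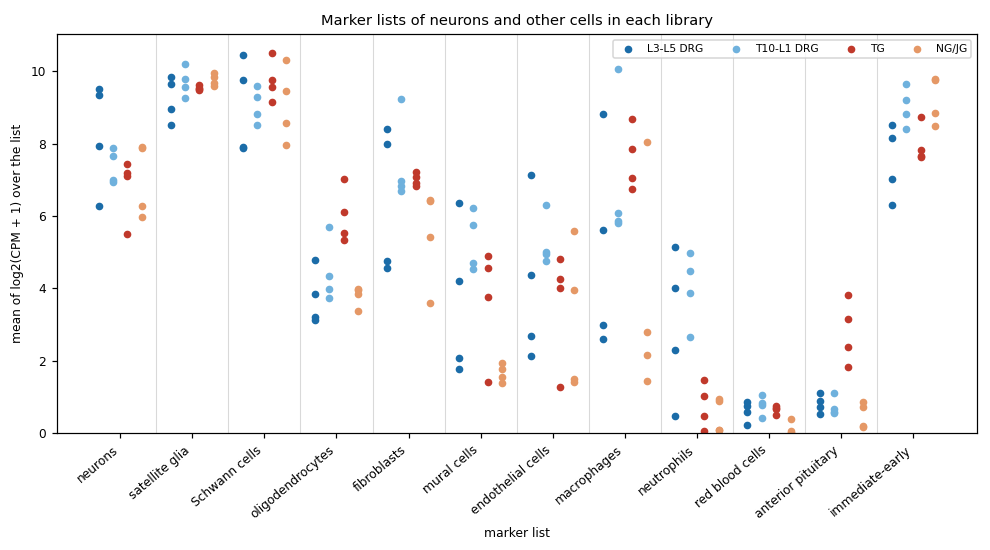
Mean of log2(CPM + 1) over each of 12 marker lists (x axis) in each library (points, 4 per ganglion). Neutrophil markers lie between 0.461 and 5.15 in the DRG and reach 1.46 in TG and 0.926 in NG/JG. Mural markers have their lowest mean in NG/JG, and satellite glia lie between 8.51 and 10.2 in all 16 libraries.

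The remaining genes of the 12 had few cranial reads. Klk5, a secreted serine protease gene of skin (chr7:51097639-51106551, plus strand), and Hrc, which encodes a histidine-rich calcium-binding protein (chr7:52590660-52594343, plus strand), had no cranial read, with 0 to 64 and 0 to 31 reads in spinal libraries. They were at least 58.7-fold and at least 28.8-fold higher, and held in only 3 and 2 of the 16 left-out fits. The uncharacterized gene 9530053A07Rik had 13 to 77 spinal reads and a single read in NG/JG library 1, a pooled ratio of 246 (95% exact counting interval 43.8 to 9741), without overlap.

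Pcdhgb4 and Pcdhb15 belong to the clustered protocadherins, adhesion proteins by which neurons tell themselves from their neighbours. Pcdhgb4 had 28, 42, 43 and 17 reads in L3-L5 DRG, 0, 26, 55 and 97 reads in T10-L1 DRG and 2 reads in the 8 cranial libraries together (pooled ratio 111, interval 30.4 to 918). Pcdhb15 had 1 to 149 spinal and 2 cranial reads (pooled ratio 173, interval 47.6 to 1432). Members of this cluster share much sequence, so reads may be split between them. Pcdha2, of the same cluster family, held as well, with 8.46 and 2.90 CPM on average in L3-L5 and T10-L1 DRG, 0.141 in TG and 0 in NG/JG. Tuft1 and B4galnt3, genes of an enamel matrix protein and of a glycosyltransferase, had 0 to 405 and 1 to 136 spinal reads against 2 and 1 cranial reads.

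**Figure D5:**
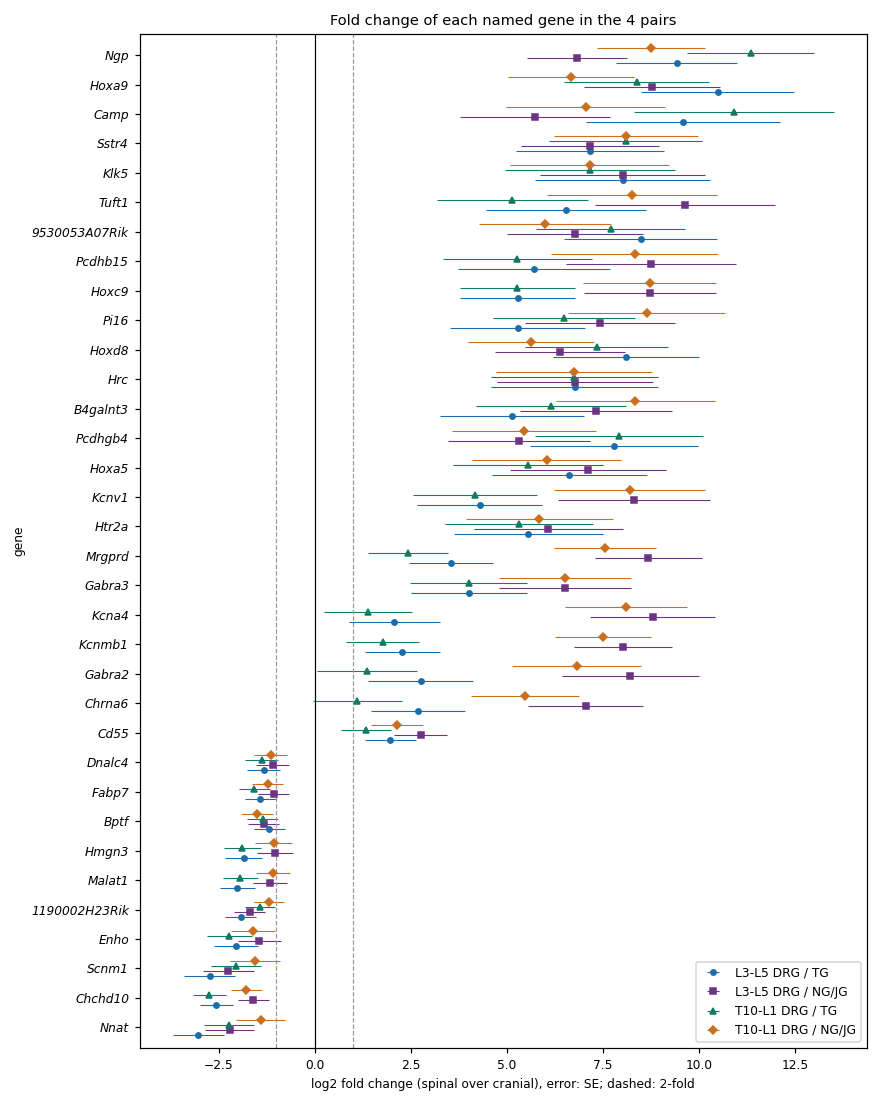
Log2 fold change of the 34 named genes in each of the 4 spinal-cranial pairs (points, with SE), with dashed lines at 2-fold. All 24 genes on the right have each pair beyond 1 and all 10 on the left beyond -1, and for Mrgprd, Kcna4, Kcnmb1, Gabra2 and Chrna6 both pairs with NG/JG lie to the right of both pairs with TG.

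On the cranial side, Chchd10, which encodes a mitochondrial protein of the intermembrane space (chr10:75398318-75400470, plus strand), had the lowest adjusted p of the genes that held in this direction. It had 83.8, 59.1, 79.1 and 57.0 CPM in L3-L5 DRG, 80.1, 75.7, 49.8 and 40.4 CPM in T10-L1 DRG, 161, 447, 492 and 550 CPM in TG and 131, 192, 224 and 298 CPM in NG/JG. The classes did not overlap, and the lowest cranial values were TG library 1 and NG/JG library 1. The log2 fold change was -2.17 ± 0.29 (SE, edgeR adjusted p = 0.00396), between -1.60 and -2.75 over the 4 pairs and between -1.97 and -2.30 in the left-out fits.

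Nnat, an imprinted gene of a small membrane protein of developing brain (chr2:157385814-157388258, plus strand), had 15.3, 27.5, 20.1 and 26.9 CPM in L3-L5 DRG, 6.35, 59.2, 59.7 and 31.2 CPM in T10-L1 DRG, 95.6, 376, 193 and 69.1 CPM in TG and 102, 67.3, 88.6 and 159 CPM in NG/JG. There was no overlap (log2 fold change -2.22 ± 0.46 SE, edgeR adjusted p = 0.0299). Bptf, a subunit gene of a chromatin remodelling complex, and Dnalc4, a dynein light chain gene, did not overlap either. Bptf had 33.1 to 81.3 CPM in spinal and 104 to 218 CPM in cranial libraries, and Dnalc4 had 28.3 to 49.1 CPM and 60.6 to 131 CPM.

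Enho, which encodes the secreted peptide adropin, had 10.8 to 38.3 CPM in spinal and 35.9 to 138 CPM in cranial libraries, with an overlap of 1 library on each side, and 1.18% of its exons overlap Dnaic1 on the opposite strand. Scnm1, a gene of an RNA splicing factor, had 9.16 to 34.4 CPM in spinal and 16.1 to 220 CPM in cranial libraries, where the 16.1 came from NG/JG library 3. The nuclear non-coding RNA Malat1 had a median of 11200 CPM in spinal and 32200 CPM in cranial libraries, with TG library 1 and NG/JG library 2 within the spinal range. The chromatin protein gene Hmgn3 and the gene 1190002H23Rik, also known as Rgcc, had medians of 51.9 and 253 CPM in spinal and 146 and 709 CPM in cranial libraries.

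Fabp7, the brain fatty acid binding protein gene, is a marker of satellite glia. It had 946 ± 237 and 848 ± 385 CPM in L3-L5 and T10-L1 DRG, 2524 ± 1108 in TG and 1979 ± 537 in NG/JG (SD, n = 4 each), a log2 fold change of -1.32 ± 0.28 (SE, edgeR adjusted p = 0.0334). TG library 1, at 912 CPM, lay in the spinal range. Of 13 satellite glia markers, 3 were higher in cranial ganglia at the threshold (Fabp7, Apoe and S100b, of which Fabp7 held), against 0.59% of all genes tested, and 5 were higher in spinal ganglia below it (median log2 fold change -0.45). Markers of Schwann cells and of the immediate-early response to dissociation gave no call among 11 and 15 tested, and all of them had a negative log2 fold change (medians -0.52 and -0.60). Their marker levels overlapped, at 7.87 to 10.5 and 7.97 to 10.5 for Schwann cells and at 6.31 to 9.66 and 7.63 to 9.78 for the immediate-early list. Oligodendrocyte markers gave no call among 10, at 3.13 to 5.70 in spinal libraries, 5.34 to 7.03 in TG and 3.38 to 3.99 in NG/JG. Over all genes tested, 0.871% were called as higher in spinal and 0.59% as higher in cranial ganglia. Few calls would fall at that share in the Schwann cell, immediate-early and oligodendrocyte lists, so their absence is no result. The part of glial content in the cranial genes was not tested.

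Hox genes, the known axial difference, serve as the reference for size. Of 39 in the files, 24 were tested, 7 rose in spinal ganglia (29.2%, against 0.871% of all genes tested) and all 7 held (against 0.569%): Hoxa5, Hoxa7, Hoxa9, Hoxa10, Hoxc6, Hoxc9 and Hoxd8. All 24 had a positive log2 fold change (median 5.68, also with the 1 gene that had no cranial read at its bound). Of these, 16 were higher in all 4 pairs, for which the share over all genes was not counted. Hoxa9 (chr6:52173099-52181088, minus strand) shares 2.43% of its exons with Mir196b on the same strand. It had 188, 203, 450 and 73 reads in L3-L5 DRG, 75, 17, 56 and 35 reads in T10-L1 DRG and 1 cranial read, in NG/JG library 1. Its pooled ratio was 789 (95% exact counting interval 141 to 31180). Hoxa7 (chr6:52164490-52171853, minus strand) had 114 to 486 spinal reads and 0 to 19 cranial reads, the 19 in NG/JG library 1, and 20.4% of its exons overlap 2700086A05Rik on the opposite strand. Hoxd8, Hoxc9 and Hoxa5 had 1, 3 and 2 cranial reads in all, with pooled ratios of 193 (interval 34.3 to 7639), 115 (39.1 to 560) and 167 (45.9 to 1382).

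For the other 8 tested Hox genes the pairs did not share a direction. Hoxb5 had 125 CPM on average in NG/JG, above the 16.7 and 6.58 CPM of L3-L5 and T10-L1 DRG, and 0.151 CPM in TG, so that its contrast over the classes was 1.22 ± 0.63 on the log2 scale (SE, edgeR adjusted p = 0.354). Hoxb6, at 21.4 CPM in NG/JG, 2.86 and 5.73 CPM in the DRG and 0.0336 CPM in TG, had the same order of NG/JG above DRG above TG.

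Other genes that pattern or specify sensory neurons gave no call, beside 0.871% (spinal) and 0.59% (cranial) of all genes tested. At that share few calls would fall in lists of this size, so their absence is no result about these genes. Among tested genes the test called 0 of 11 Hox cofactors of the TALE class, 0 of 18 genes of the retinoic acid pathway, 0 of 16 transcription factor genes of head and placode, 0 of 33 of sensory neurons and 0 of 65 axon guidance genes, with median log2 fold changes of 0.51, -0.16, -0.06, 0.91 and 0.24. Of 28 markers of low-threshold mechanoreceptors and proprioceptors, 0 rose in spinal and 1, the lactate dehydrogenase gene Ldhb, in cranial ganglia. This lay beside 0.871% and 0.59% of all genes tested. A list of 19 further genes that the study discusses for trigeminal or dorsal root neurons, which leaves out the pituitary genes and the nociceptor markers given above, had 18 tested. Part of these were chosen on the same libraries and are no independent evidence of direction. The others, Oxtr, Avpr1a, Gabrd, Rgs6, Prlr, Kcnq5 and AW551984, are cited in the study from earlier work, and none of them was called. Of the 18 tested, 0 rose in spinal ganglia and 1, the prostaglandin D synthase gene Ptgds, in cranial ganglia (0.871% and 0.59% of all genes tested). The log2 fold change was positive for 15 of the 18, and 7 were higher in spinal ganglia in all 4 pairs. Its median was 2.12, beside 0.08 for all genes tested. Ptgds had 1462 CPM in TG, 33.9 in NG/JG and 9.35 and 18.0 in the DRG.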

How the data were processed

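RNA from sorted Pirt/TdTomato-positive cells of 16 samples was sequenced as full-length, oligo-dT-primed cDNA in single reads. The authors aligned the reads with TopHat2 to mm9 and counted them per gene with HTSeq, after bcl2fastq (versions, annotation and strand setting are not given in the sources used here), and the deposited values are raw counts per gene. Rows that name no gene (reads outside genes and similar classes) were left out of library sizes and tests, and reads outside genes were 29.6% to 66.6% of uniquely aligned reads. Depth was 4735624 to 13333318 reads on genes per library, which sets the precision of low genes. Before TMM scaling, 3 reads were 0.225 to 0.633 CPM.

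Counts were fitted with edgeR 4.0.16 (R 4.3.3, TMM factors, filterByExpr by ganglion, quasi-likelihood F-test) with 1 mean per ganglion, so that 12 residual degrees of freedom were left. The contrast was the mean of both DRG minus the mean of TG and NG/JG, and the 4 pairs came from the same fit. The filter kept 14236 of 22609 genes. P-values were adjusted by Benjamini-Hochberg over all genes tested, with a threshold of 0.05. CPM of single genes used TMM-scaled library sizes, and marker levels used unscaled library sizes and a pseudocount of 1. Counting intervals are exact at 95%, and the floor for a class with no read was 3 reads. DESeq2 1.42.0 and limma 3.58.1 (voom with a variance weight per ganglion) served as alternatives. Further settings were other scaling, no filter, a class-only model, pairs fitted on their own, a replicate block, thinned depth, other fold limits and each library left out. Leaving out 3 libraries together was added after seeing the data. The scripts were tested on simulated counts. Tables were handled with Python 3.11.15, pandas 2.3.3, numpy 2.4.6 and scipy 1.17.1, and plots with matplotlib 3.10.9.

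Named genes were, in each direction, up to 12 with the largest difference in their weakest pair among genes that held, had no Hox name and had a mean of at least 1 CPM in each ganglion of the higher class, plus up to 4 per gene list, and genes past the largest of the 4 pair p-values, of which there were 0. Members, lists and tests were chosen with earlier results of these data known. Coordinates are those of the GENCODE annotation of NCBIM37 (mm9), matched by symbol for 21679 genes.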

Additional observations from a re-analysis of the deposited data

Results flagged for a closer look

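In 28 of 184 groups of 4 libraries looked at, the gap of 1 library to the other 3 passed Dixon's 95% critical value for 4 values. These were 21 of 136 groups of a named gene and 7 of 48 of a marker list. For normally distributed values chance gives about 1 in 20 groups. Gene groups were taken in CPM without logarithms, so that rate need not hold for them. The groups share libraries and are not independent.

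Of these, 12 passed whatever the number of reads, since they were a few reads in a cranial ganglion whose other 3 libraries had none. In TG they were Ngp at 0.256 CPM in library 2, Htr2a at 0.211 and B4galnt3 at 0.211 CPM in library 3, and Pcdhb15 at 0.429 and Hoxa5 at 0.214 CPM in library 4. In NG/JG they were 9530053A07Rik, Hoxa9, Hoxd8 and Hoxa5 at 0.140 CPM each in library 1, and Camp at 0.778, Htr2a at 0.130 and Kcna4 at 0.130 CPM in library 3.

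Among genes with more reads, L3-L5 DRG library 1 had 2.35 CPM of 9530053A07Rik (others 5.83 to 6.40), L3-L5 DRG library 3 had 150 CPM of Gabra2 (others 2.26 to 27.2) and L3-L5 DRG library 4 had 0.376 CPM of Hoxa5 (others 7.92 to 9.21). T10-L1 DRG library 1 had 7.34 CPM of Htr2a (others 0.943 to 1.26), library 3 had 161 CPM of Kcnmb1 (others 13.97 to 25.8) and library 4 had 109 CPM of Pi16 (others 0.282 to 9.38). TG library 1 had 2.29 CPM of Gabra3 (others 0.214 to 0.422) and 44.4 CPM of Chrna6 (others 2.15 to 9.29), and TG library 3 had 13.3 CPM of Kcna4 (others 1.54 to 2.36).

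Among marker levels, as means of log2(CPM + 1), TG library 1 had 5.51 for neurons (others 7.10 to 7.43) and 8.73 for the immediate-early list (others 7.63 to 7.82). T10-L1 DRG library 4 had 9.23 for fibroblasts (others 6.69 to 6.95) and 10.1 for macrophages (others 5.80 to 6.09). T10-L1 DRG library 1 had 6.30 for endothelial cells (others 4.74 to 5.01) and 1.12 for the anterior pituitary (others 0.561 to 0.654), and NG/JG library 4 had 0.385 for red blood cells (others 0 to 0.0534).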

How the results depend on the processing

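All counts are given as spinal and cranial. With DESeq2 808 and 513 genes were called and 414 (400 without Hox genes) and 71 held, with 7 past the largest pair p. With limma voom and its variance weight per ganglion, 2 and 1 were called and 2 (0 without Hox genes) and 1 held. A class-only model called 5 and 1, and pairs fitted on their own left 41 spinal genes (37 without Hox genes). Without a filter 24 cranial genes were called and 6 held. A 1.5-fold limit left 38 cranial genes, and a 4-fold limit left 49 spinal genes without Hox genes and 0 cranial ones. With the 3 libraries left out together, 216 and 271 genes were called, 27 cranial genes held, and 171 and 64 genes did not overlap. RLE scaling and thinned depth kept every count within 1.5 times. With each library left out in turn, calls ran from 8 to 375 and from 1 to 398, genes that held from 8 to 181 (6 to 174 without Hox genes) and from 1 to 32, genes past the largest pair p from 0 to 1, and genes without overlap from 43 to 77 and from 15 to 48. The condition of no overlap is easier to meet with fewer libraries, and the cause of the differences was otherwise not tested. No named gene changed direction: of 814 values, 417 stayed past the threshold and 397 did not.

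With the replicate number as a block, 4 and 1 genes were called and 2 (2 without Hox genes) and 1 held. Same-numbered libraries of different ganglia had correlated deviations of -0.117 to 0.169 (mean 0.0445, 6 of 24 pairs over 0.1), against -0.216 to 0.378 for other numbers (mean -0.0147, 5 of 72 over 0.1), and 3 of 16 libraries correlated best with their own number. Deviations were taken from the mean of each ganglion, so the means of both kinds of pair are tied to each other. A larger share of same-numbered pairs lay over 0.1, though most lay below it. The sources used here do not say what a number marks, so the numbers were not taken to pair the samples. These correlations cannot decide whether same-numbered libraries share a source.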
